A study of Mus musculus with 12 samples.

Results

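Oxidative phosphorylation genes were examined in mouse bone marrow derived macrophages (BMDM) 1 h after exposure to LPS, the human defensin hBD3, or both. The genes were taken by symbol from the probe table of the array: names starting with Nduf followed by a, b, c, s or v, with Cox4 to Cox8, with Atp5 or with Uqcr, and Sdha, Sdhb, Sdhc and Sdhd. This rule found 107 probes and 85 genes among 25697 probes and 16593 named genes, and each gene was represented by its brightest probe by mean signal. By complex there were 40 genes of complex I, 3 of complex II, 8 of complex III, 18 of complex IV and 16 of complex V. Genes were placed by name, so Ndufa4, whose protein is now known from complex IV, counts with complex I. The table listed no probe under Sdha. Of the 85 genes, 78 encode subunits, 6 encode proteins that are not subunits (Ndufaf1, Ndufaf3, Ndufaf4, Ndufaf5, Ndufaf7 and Cox7a2l) and 1 is a pseudogene (Ndufs5-ps).

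All 12 arrays (Illumina MouseRef-8 v2.0) held RNA of BMDM from Balb/c mice, grown from femoral marrow for 7 to 10 days with 20 ng/mL M-CSF and kept overnight without it. There were 3 arrays in each of 4 groups, namely LPS plus hBD3, LPS (50 ng/mL), hBD3 and untreated, and the labels name no genetic change in any of them. The hBD3 dose is written as 5 mg/mL in the sample labels, whereas the methods give the same figure in μg/mL, and the labels give no dose for the combination. The replicates are stated to come from separate mice, so p-values refer to the spread between these cultures. Markers of the labelled cell type were present, since 9 of 10 measured macrophage genes were detected in every group, while 0 of 10 lymphocyte and 0 of 8 dendritic cell genes were. The summed signal of the macrophage list lay between 48900 and 52830 on LPS plus hBD3 arrays, 47550 and 51790 on LPS arrays, 47540 and 50330 on hBD3 arrays, and 48610 and 51570 on untreated arrays. LPS replicate 1 stood apart from the other arrays. It had the fewest detected probes of the 12 (8958, others 9236 to 9923) and the lowest mean correlation with the other arrays of its group (0.968, others 0.979 to 0.992), so medians over the 85 genes, and values of single genes that it moved by over 1.5 times, are also given without it. In bulk RNA of this kind, less RNA per cell and fewer cells of a type cannot be told apart.

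Oxidative phosphorylation takes place in the inner mitochondrial membrane. Complexes I and II pass electrons from NADH and succinate to ubiquinone, complex III hands them to cytochrome c, and complex IV, cytochrome c oxidase, gives them to oxygen. The proton gradient built by complexes I, III and IV drives complex V, the ATP synthase. Macrophages activated by LPS are known to turn towards glycolysis over the following hours, while succinate oxidation and reverse electron flow through complex I contribute to their output of reactive oxygen and of interleukin-1β. The genes studied here are the nuclear ones. NRF-1, the ETS protein GABP and YY1 are textbook regulators of their promoters.

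For 70 of the 85 genes RefSeq promoter windows were available, reaching from 250 bases before the transcription start to 50 after it (GRCm38.p6). Matches on either strand were counted for GCGCANGCG (NRF-1 core), CCGGAAG (ETS) and AANATGGC (YY1), and for GGGANTTCC (NF-κB), a motif of LPS-induced promoters. The NRF-1 core was found for 19 genes (27.1%, against 10.7% of 13336 array genes with a window and 7.03% of all 27025 genes), the ETS motif for 17 (24.3%, against 13.9% and 9.93%) and the YY1 motif for 18 (25.7%, against 7.82% and 6.96%). The NF-κB motif was found for 2 genes (2.86%, against 2.25% and 1.92%). At least 1 of the first 3 motifs stood in 44 of the 70 windows (62.9%, against 27.6% of array genes), by complex in 23 of 36 windows for complex I, 2 of 2 for complex II, 3 of 5 for complex III, 4 of 13 for complex IV and 12 of 14 for complex V. A match is a stretch of letters, and binding was not measured.

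**Figure D1:**
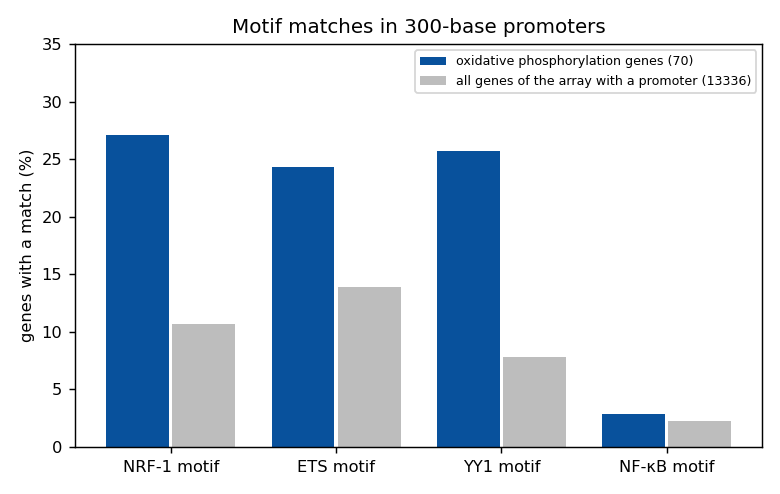
Share of genes (%) whose 300-base promoter window holds each motif on either strand, for the 70 oxidative phosphorylation genes with a window (dark bars) and for all 13336 array genes with one (grey bars). The NRF-1, ETS and YY1 motifs stand at 27.1%, 24.3% and 25.7% in the dark bars, against 10.7%, 13.9% and 7.82% in the grey ones, and the NF-κB motif at 2.86% against 2.25%.

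The upstream stretches below show how these motifs lie, for the 1 gene of each complex that was detected on all arrays and had the most different kinds of the first 3 motifs upstream of its start (in a tie the most matches, then the first name). Each runs 5′ to 3′ on the gene's strand, which is the minus strand in every case, with motif letters in capitals. The Ndufa8 stretch (chr2:36049339-36049379) ends at the base before the start and holds the NRF-1 core 2 times, and the Sdhd stretch (chr9:50603877-50603940) holds NRF-1 and ETS matches. The Uqcr11 stretch (chr10:80406869-80406899) holds an ETS match, the Cox6a1 stretch (chr5:115348959-115349132) 3 NRF-1 matches, of which the first 2 overlap, and an ETS match, and the Atp5h stretch (chr11:115419939-115420072) an NRF-1 and an ETS match.
Ndufa8: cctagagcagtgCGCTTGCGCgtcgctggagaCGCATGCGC
Sdhd: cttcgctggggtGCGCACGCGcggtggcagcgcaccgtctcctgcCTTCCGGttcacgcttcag
Uqcr11: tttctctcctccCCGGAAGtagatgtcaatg
Cox6a1: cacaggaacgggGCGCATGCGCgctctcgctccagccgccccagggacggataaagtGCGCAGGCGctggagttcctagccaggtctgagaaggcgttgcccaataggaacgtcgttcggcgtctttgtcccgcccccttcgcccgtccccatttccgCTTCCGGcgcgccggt
Atp5h: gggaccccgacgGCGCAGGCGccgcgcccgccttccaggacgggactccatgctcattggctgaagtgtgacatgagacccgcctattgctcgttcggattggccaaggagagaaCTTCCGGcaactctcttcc

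These promoters belong to genes that were mostly well expressed. A probe was called detected on an array when its detection p, the BeadStudio value for a signal above negative controls, was under 0.01. By this measure 67 of the 85 genes (78.8%) were detected on all 12 arrays, against 7893 of 25697 probes (30.7%). They were 33 of 40 genes of complex I, 3 of 3 of complex II, 6 of 8 of complex III, 11 of 18 of complex IV and 14 of 16 of complex V. The 11 genes detected on no array included Cox4i2, Cox6b2, Cox7b2, Cox8b and Cox8c, isoforms of cytochrome c oxidase subunits known from lung, testis, heart or skeletal muscle. They also included Cox7b, Ndufb4, Ndufs1, Uqcrfs1, Uqcrq and Atp5k, which encode constitutive subunits, so for these the probe gave no measurement of the gene. Ndufs1 carries iron-sulfur clusters of complex I and Uqcrfs1 is the Rieske protein of complex III.

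Among the tissue-restricted isoforms, Cox7a1, the heart and muscle form of subunit VIIa, was detected on all 12 arrays. Its log2 signals were 7.33, 6.82 and 6.71 on LPS plus hBD3 arrays, 7.73, 6.65 and 6.76 on LPS arrays, 7.24, 7.12 and 7.02 on hBD3 arrays, and 7.11, 6.90 and 6.75 on untreated arrays. LPS replicate 1 was highest, and all groups overlapped. Cox6a2, the muscle form of subunit VIa, was detected on 4 arrays. Of the 7 ubiquitous counterparts of these isoforms, 6 were detected on all arrays (Cox4i1, Cox6a1, Cox6b1, Cox7a2, Cox8a and Ndufa4) and Cox7b on none.

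The first comparison asked whether LPS moved these genes within 1 h. No gene passed the test (limma on quantile normalized log2 signals, Benjamini-Hochberg adjusted p under 0.05 over all probes): 0 of 85 did, against 0.105% of all probes (27 of 25697). At an unadjusted p under 0.05 the count was also 0 of 85, against 3.23% of all probes. The log2 fold changes (log FC) of LPS over untreated ranged between -0.46 (Cox7a2l) and 0.19 (Uqcrc2), with a median of 0.032 beside 0.0079 over all probes. For the genes and the probes detected on all 12 arrays the medians were closer, at 0.032 and 0.023. Of the 85 estimates 60 were above 0. A list of 8 early LPS genes was chosen with earlier results of these data known, so it is no independent check. On the same arrays all 8 of these genes passed the test, with a median log FC of 3.88. One of them, Tnf, had log2 signals of 11.54, 13.05 and 13.51 on LPS arrays, against 8.03, 9.23 and 8.48 on untreated arrays (log FC 4.12 ± 0.56 SE, limma adjusted p = 0.0165).

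The precision of these estimates bounds what could have been missed. The median SE was 0.13, and for the 67 genes detected on all arrays the 95% confidence intervals for LPS over untreated all lay within 1 log2 unit of 0. The lowest bound was -0.99 (Cox7a2l) and the highest 0.68 (Cox7a1). For 50 of these 67 genes the interval lay within 0.5 of 0. In the other pairwise comparisons all 67 intervals also lay within 1 log2 unit of 0, with extremes of -0.65 (Cox7a1) and 0.96 (Cox7a2l) for LPS plus hBD3 over LPS. With 3 arrays a group, changes within the interval of a gene remain compatible with its data. The intervals are for single genes, without adjustment over all probes, and are not limits of detection.

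**Figure D2:**
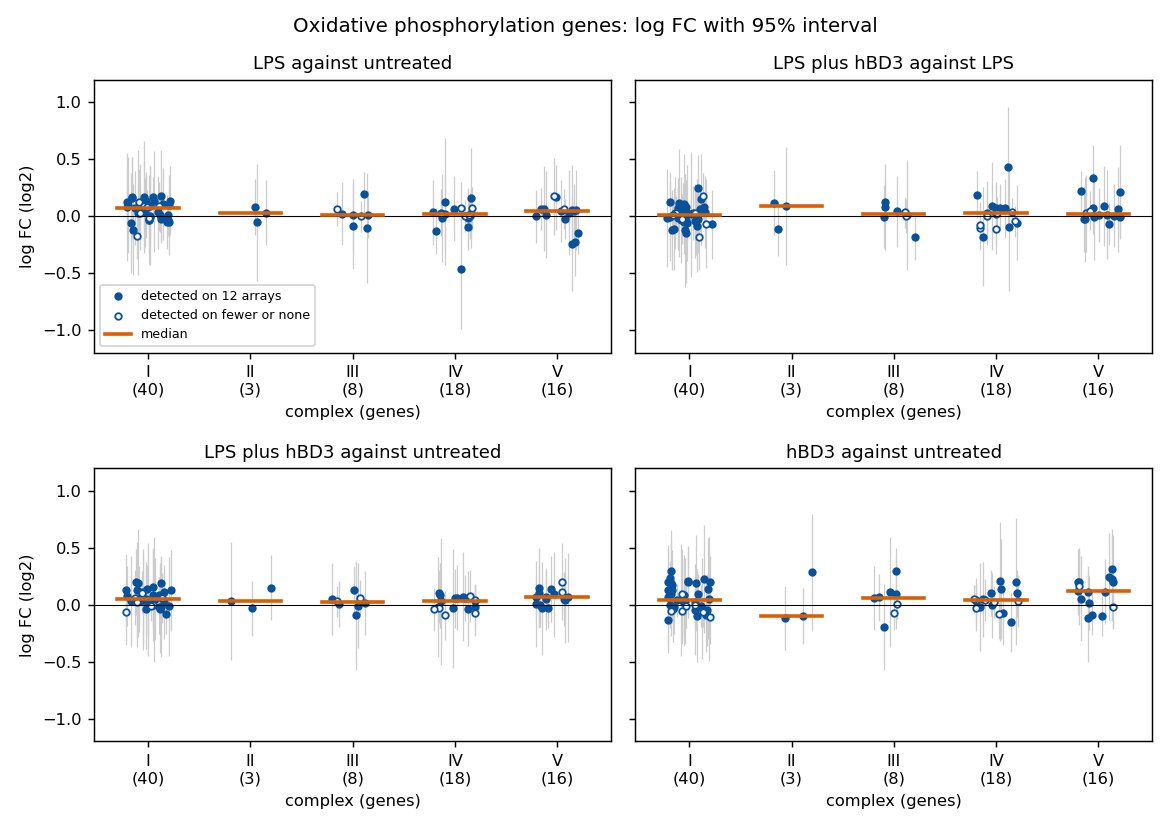
The log FC (log2, y axis) of each of the 85 genes by complex (x axis, with the number of genes) in 4 comparisons, with grey lines for 95% intervals, filled points for genes detected on all 12 arrays, open points for the rest, and orange bars for the median of a complex. All intervals lie within 1 log2 unit of 0, and the lowest point for LPS against untreated is Cox7a2l at -0.46.

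By complex, the medians for LPS over untreated were 0.074 for complex I, 0.030 for complex II, 0.013 for complex III, 0.023 for complex IV and 0.043 for complex V. Estimates above 0 were found for 29 of 40 genes of complex I, 2 of 3 of complex II, 5 of 8 of complex III, 13 of 18 of complex IV and 11 of 16 of complex V. Among genes detected on all 12 arrays these counts were, in the same order, 24 of 33, 2 of 3, 4 of 6, 6 of 11 and 9 of 14. The sign of the overall median turned in 4 of the alternatives, with LPS replicate 1 left out in 2 of them. Without untreated replicate 3 the median over all 85 genes was -0.0090 and 41 estimates were above 0, and with weights for arrays it was -0.010 with 36 above 0. Without LPS replicate 1 the median over all 85 genes was -0.067 and 20 of 85 estimates were above 0, against 12424 of all 25697 probes. With median scaling as well, the median was -0.092, or -0.12 for the 67 detected genes beside -0.055 for all 7893 detected probes. By complex, the quantile normalized medians without LPS replicate 1 were -0.059 for complex I, -0.055 for complex II, -0.093 for complex III, -0.070 for complex IV and -0.076 for complex V, all on the other side of 0. Still, 0 genes passed the test, and 1 of 85 had an unadjusted p under 0.05 (2.48% of all probes).

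In complex I, Ndufs6, an accessory subunit that binds zinc, had log2 signals of 11.70, 11.48 and 11.45 on LPS arrays, against 11.33, 11.31 and 11.49 on untreated arrays. The groups overlapped, and the log FC was 0.17 ± 0.080 (SE, limma adjusted p = 1), or 0.094 without LPS replicate 1. The probe of the pseudogene Ndufs5-ps, which may also bind the transcript of its parent gene, gave 10.42, 9.67 and 9.75 on LPS arrays and 9.59, 9.90 and 9.83 on untreated arrays. Only LPS replicate 1 lay above the untreated values, and the log FC of 0.17 turned to -0.061 without it.

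Complex II is succinate dehydrogenase, which also belongs to the citric acid cycle. Sdhb, its iron-sulfur subunit, had log2 signals of 9.84, 9.52 and 8.96 on LPS arrays and 9.82, 9.62 and 9.05 on untreated arrays, and the log FC was -0.056 ± 0.23. In both groups replicate 3 was lowest. The membrane anchor Sdhd had 6.54, 6.20 and 6.08 on LPS arrays and 6.11, 6.34 and 6.13 on untreated arrays (0.079 ± 0.11). The second anchor, Sdhc, had 10.03, 10.09 and 9.83 on LPS arrays, against 9.61, 10.15 and 10.09 on untreated arrays (0.030 ± 0.13). For all 3 genes the groups overlapped. Without LPS replicate 1 the log FC was -0.26 for Sdhb, -0.055 for Sdhd and 0.0074 for Sdhc.

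In complex III, Uqcrc2, a core protein, had log2 signals of 11.34, 11.19 and 11.10 on LPS arrays and 11.07, 11.13 and 10.86 on untreated arrays. The groups overlapped by 1 array each, and the log FC of 0.19 ± 0.090 did not pass (limma adjusted p = 1). Without LPS replicate 1 it was 0.12. Uqcrh, the hinge protein that contacts cytochrome c1, had 12.59, 12.03 and 11.92 on LPS arrays and 12.69, 12.23 and 11.94 on untreated arrays (-0.10 ± 0.22, and -0.31 without LPS replicate 1). Replicate 1 was highest in both groups.

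In complex IV the estimate farthest from 0 was that of Cox7a2l, a supercomplex assembly factor that joins complexes III and IV. Its log2 signals were 9.58, 10.62 and 10.45 on LPS arrays, against 10.98, 10.55 and 10.51 on untreated arrays. One array, LPS replicate 1, lay far below the rest. The log FC was -0.46 ± 0.24 (limma adjusted p = 1) and -0.15 without that array. Cox6b1, the subunit facing the intermembrane space, went the other way on the same array, with 12.93, 12.15 and 12.11 on LPS arrays and 12.39, 12.36 and 11.96 on untreated arrays. Its log FC was 0.16 ± 0.20, and -0.11 without LPS replicate 1.

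The next 2 lowest estimates were found in complex V. Atp5d, the delta subunit of the central stalk, had 9.27, 9.79 and 9.78 on LPS arrays and 9.84, 9.71 and 9.98 on untreated arrays (-0.23 ± 0.13, and -0.058 without LPS replicate 1). Atp5pb, subunit b of the peripheral stalk, had 9.05, 9.39 and 9.53 on LPS arrays and 9.87, 9.49 and 9.34 on untreated arrays (-0.24 ± 0.19, and -0.11 without LPS replicate 1). For both genes the groups overlapped. Among the 85 genes, no overlap between LPS and untreated arrays was seen for 2 genes with lower LPS values, Atp5a1 and Cox6a1 (3.23% of all probes were lower in this way), and for 0 genes with higher ones (4.34% of all probes). Atp5a1, the alpha subunit of the catalytic head, had 6.96, 6.94 and 6.72 on LPS arrays, against 7.05, 6.96 and 7.05 on untreated arrays (-0.15 ± 0.081, limma adjusted p = 1). The nearest arrays of the groups differed by less than the spread within either.

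**Figure D3:**
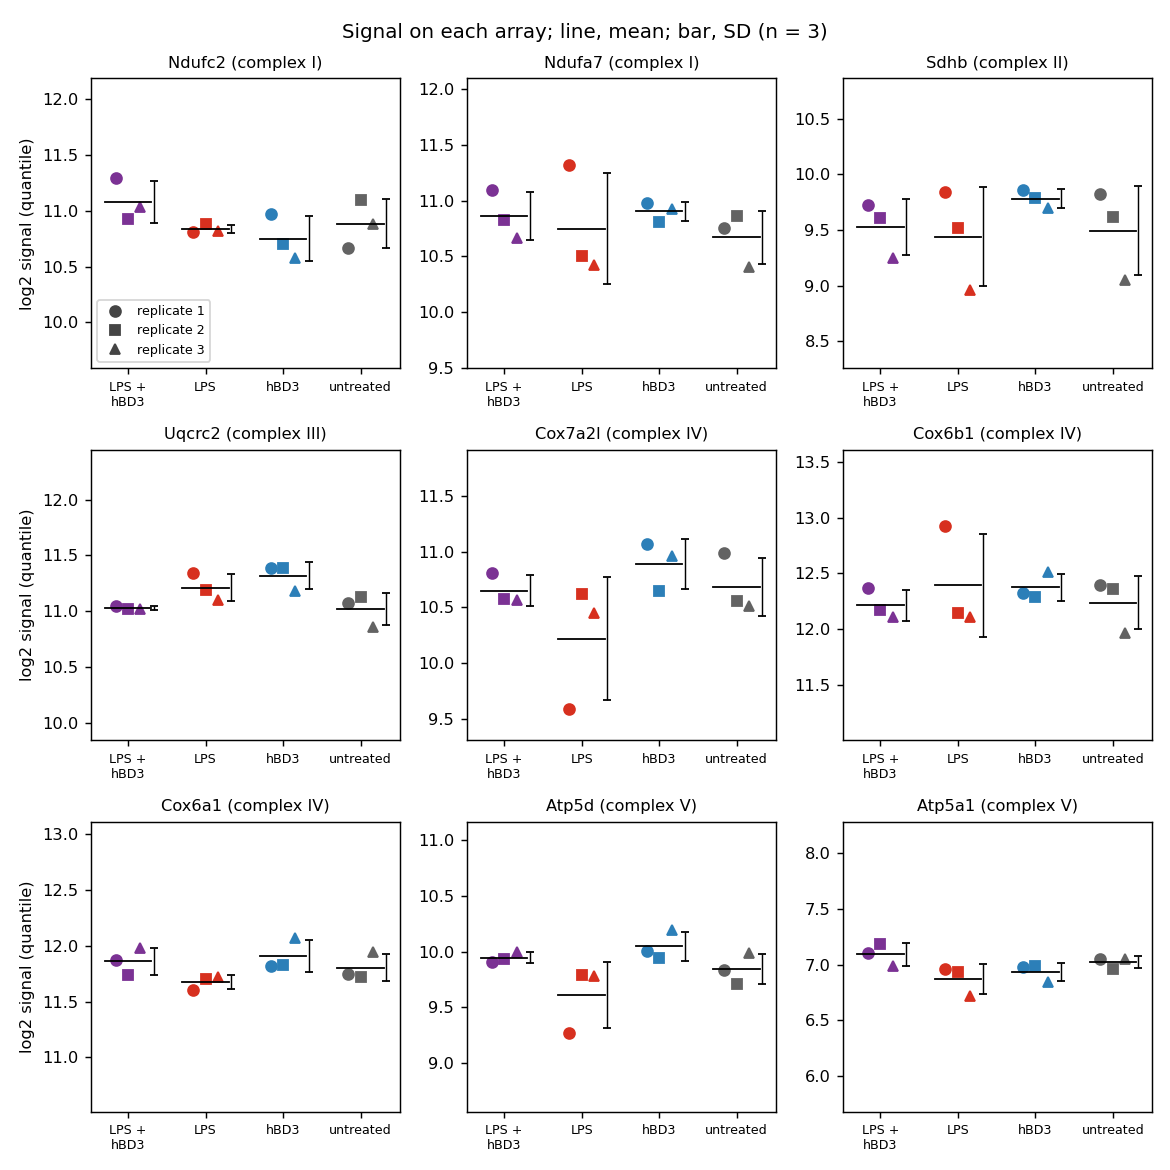
Quantile normalized log2 signal (y axis) of 9 genes on each of the 12 arrays by group (x axis), with circles, squares and triangles for replicates 1, 2 and 3, a line for the mean and a bar for the SD (n = 3). LPS replicate 1 is the lowest array for Cox7a2l (9.58) and Atp5d (9.27) and the highest for Cox6b1 (12.93) and Ndufa7 (11.32), while Uqcrc2 on the 3 LPS plus hBD3 arrays lies between 11.02 and 11.04.

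The second comparison asked whether hBD3 altered these genes in the presence of LPS. Again 0 of 85 passed the test, against 0.0545% of all probes (14 of 25697), and at an unadjusted p under 0.05 there were 2 genes, against 3.70% of all probes. The log FC of LPS plus hBD3 over LPS ranged between -0.19 (Ndufaf3) and 0.43 (Cox7a2l), with a median of 0.020 beside -0.0047 over all probes. For the genes and the probes detected on all 12 arrays the medians were 0.022 and -0.013. The log FC of Cox7a2l was 0.12, and that of Ndufaf3 -0.012, without LPS replicate 1. Without this array the median over the 85 genes was also 0.12, and 75 of the 85 estimates were above 0, against 51 of 85 on all arrays and 13341 of 25697 probes without that array. At an unadjusted p under 0.05 there were then 9 genes, all higher (10.6% of the 85), against 3.61% of all probes, and 0 passed the test. With median scaling and without LPS replicate 1 the median was -0.048, and 30 of 85 estimates were above 0. In that setting the median was -0.074 for the 67 detected genes, beside -0.16 for all 7893 detected probes. On the 12 arrays 4 of the 8 early LPS genes passed the test, all lower with LPS plus hBD3, and 7 of 8 did with the replicate number as a block or without LPS replicate 1.

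Both genes under the unadjusted threshold on all 12 arrays belong to complex V. Atp5d had log2 signals of 9.90, 9.94 and 10.00 on LPS plus hBD3 arrays, against 9.27, 9.79 and 9.78 on LPS arrays. The LPS plus hBD3 arrays were all above the LPS arrays, with a log FC of 0.33 ± 0.13 (limma adjusted p = 1), or 0.16 without LPS replicate 1. Atp5a1 had 7.11, 7.19 and 6.98 on LPS plus hBD3 arrays and 6.96, 6.94 and 6.72 on LPS arrays (0.22 ± 0.081, limma adjusted p = 1). These groups also did not overlap. Under scaling by the median instead of quantile normalization the log FC was -0.038 for Atp5d and 0.021 for Atp5a1. Both lay above the median of all 7893 detected probes, which was -0.28 under this scaling.

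Groups that did not overlap were counted in the same way here. LPS plus hBD3 arrays were all higher for 4 genes, Atp5a1, Atp5d, Cox6a1 and Ndufc2 (3.50% of all probes), and all lower for 1 gene, Uqcrc2 (4.39% of all probes). Ndufc2, an accessory subunit of the membrane arm of complex I, had 11.29, 10.92 and 11.03 on LPS plus hBD3 arrays and 10.81, 10.88 and 10.82 on LPS arrays (0.25 ± 0.13). Cox6a1, the ubiquitous form of subunit VIa, had 11.87, 11.74 and 11.98 on LPS plus hBD3 arrays and 11.60, 11.70 and 11.72 on LPS arrays (0.19 ± 0.093), and its other probe gave 0.28 ± 0.073. The limma adjusted p was 1 for both probes of Cox6a1. Complex by complex, the medians were 0.012 for complex I, 0.088 for complex II, 0.022 for complex III, 0.024 for complex IV and 0.019 for complex V. Without LPS replicate 1 they were between 0.095 (complex IV) and 0.14 (complex II). This order depended on genes not detected on all arrays. For genes detected on all 12 arrays the medians without LPS replicate 1 were between 0.13 (complex V) and 0.18 (complex III), with 0.14 for complex IV.

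LPS plus hBD3 was also set against untreated cells. Here 0 of 85 genes passed the test, against 0% of all probes, and 0 of 85 had an unadjusted p under 0.05, against 2.47% of all probes. The log FC ranged between -0.093 (Uqcrh) and 0.20 (Atp5e, the epsilon subunit of complex V), with a median of 0.050 beside 9e-04 over all probes, and 63 of 85 estimates were above 0. For the genes and the probes detected on all 12 arrays the medians were 0.051 and 0.0069. The lean above 0 depended on single arrays. Without untreated replicate 3 the median over the 85 genes was 0.0105, with 46 estimates above 0. Without LPS plus hBD3 replicate 1 it was 0.023, also with 46 above 0. It was highest without LPS plus hBD3 replicate 3, at 0.079 with 73 above 0. Groups did not overlap for 3 genes with higher LPS plus hBD3 values, Atp5e, Ndufa10 and Ndufv2 (3.75% of all probes), and for 1 gene with lower ones, Cox6a2 (3.41% of all probes). Of these, Atp5e, with the highest estimate, was detected on 10 of the 12 arrays and Cox6a2 on 4. The LPS plus hBD3 and the LPS comparisons share the untreated arrays.

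With hBD3 alone the log FC over untreated ranged between -0.19 (Uqcrb) and 0.32 (Atp5h). Against untreated cells 0 of 85 genes passed the test, as did 0% of all probes, and 3 genes had an unadjusted p under 0.05, against 2.39% of all probes. The median log FC was 0.050, beside -7e-04 over all probes, and 56 of 85 estimates were above 0. For the genes and the probes detected on all 12 arrays the medians were 0.083 and -0.0083. Here too single arrays mattered. Without untreated replicate 3 the median over the 85 genes was 0.020, with 46 estimates above 0. Without hBD3 replicate 1 it was 0.018, also with 46 above 0. It was highest without hBD3 replicate 2, at 0.077 with 58 above 0. Complex V had the highest median of the complexes (0.12) and complex II the lowest (-0.10, over 3 genes). Groups did not overlap for 7 genes with higher hBD3 values (Atp5e, Atp5g2, Atp5h, Ndufa10, Ndufa8, Ndufv2 and Uqcrc2), which is 8.24% of the 85 genes beside 3.88% of all probes. Among these 7 genes, Atp5e was detected on 10 arrays. For 1 gene, Atp5g3, the hBD3 values were all lower (4.23% of all probes).

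Atp5h, subunit d of the peripheral stalk, had the highest estimate for hBD3. Its log2 signals were 9.32, 9.41 and 9.45 on hBD3 arrays, against 9.21, 9.13 and 8.87 on untreated arrays (log FC 0.32 ± 0.16, limma adjusted p = 1). All hBD3 arrays were above all untreated ones. Ndufa8, a complex I subunit on the intermembrane side whose upstream stretch with both NRF-1 matches is shown above, had 10.69, 10.54 and 10.70 on hBD3 arrays and 10.48, 10.38 and 10.36 on untreated arrays (0.24 ± 0.069, limma adjusted p = 1). A second, dimmer probe of Ndufa8 that was also detected on all arrays gave 0.021 ± 0.091.

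Uqcrc2 was under the unadjusted threshold in 3 of the 6 comparisons. Its log2 signals were 11.04, 11.02 and 11.02 on LPS plus hBD3 arrays, 11.34, 11.19 and 11.10 on LPS arrays, 11.39, 11.39 and 11.18 on hBD3 arrays, and 11.07, 11.13 and 10.86 on untreated arrays. The hBD3 arrays were above the untreated arrays, while the LPS plus hBD3 arrays were below both the LPS and the hBD3 arrays. The log FC was 0.30 ± 0.090 for hBD3 over untreated and -0.29 ± 0.090 for LPS plus hBD3 over hBD3. The effect of LPS with hBD3 minus that without it was -0.48 ± 0.13. All 3 were under the unadjusted threshold, but the limma adjusted p was 1 for each, and 0.326 for the last with the replicate number as a block.

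For LPS plus hBD3 over hBD3, 0 of 85 genes passed (0% of all probes) and 2, Ndufc2 and Uqcrc2, had an unadjusted p under 0.05 (3.78% of all probes). The median log FC was -0.0054. For the difference between the LPS effects with and without hBD3, 0 of 85 passed (0% of all probes) and 2, Atp5a1 and Uqcrc2, were under the unadjusted threshold (2.56% of all probes), with a median of -0.031, or 0.062 without LPS replicate 1. For Atp5a1 this difference was 0.31 ± 0.11 (limma adjusted p = 1).

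LPS replicate 1 was then examined on its own. On this array 59 of the 67 genes detected throughout had a higher signal than the mean of LPS replicates 2 and 3 (88.1%, against 60.4% of the 7893 probes detected throughout), with a median difference of 0.37 on the log2 scale, against 0.11. The difference exceeded 0.5 in size for 20 of the 67 genes (29.9%), against 25.7% of the 7893 probes. The same count of the 67 genes, taken for each other array against the other arrays of its group, was between 0 and 5. The part of array quality in this deviation was not tested.

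The deviation ran unequally through the complexes. In complex I it was positive for 32 of 33 detected genes, in complex II for 3 of 3, in complex III for 6 of 6, in complex IV for 9 of 11 and in complex V for 9 of 14. The 5 highest genes were Cox7a1 (1.02), Ndufb3 (0.86), Ndufa7 (0.86), Cox6b1 (0.80) and Ndufa5 (0.80), where the Ndufa and Ndufb genes encode accessory subunits. Ndufa7, for instance, had 11.32 on this array, against 10.51 and 10.42 on the other LPS arrays. The 5 lowest were Cox7a2l (-0.95), Atp5d (-0.52), Atp5pb (-0.41), Atp5g3 (-0.19), which encodes the c subunit of the rotor, and Cox6a1 (-0.10).

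Several genes could be checked with further probes. The second probe of Cox6b1 deviated by 0.75, and the 4 probes of Ndufs4, an accessory subunit needed for a stable complex I, by 0.31 to 0.62. For Atp5j, coupling factor 6 of the ATP synthase, the probes disagreed, with 0.52 for the brightest and -1.34 for a dimmer one that was also detected on all arrays. All 8 early LPS genes were lower on this array than the mean of the other LPS arrays, among them Tnf, at 11.54 against 13.05 and 13.51 on the other LPS arrays. The part of the LPS response of this culture in the deviation was not tested.

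**Figure D4:**
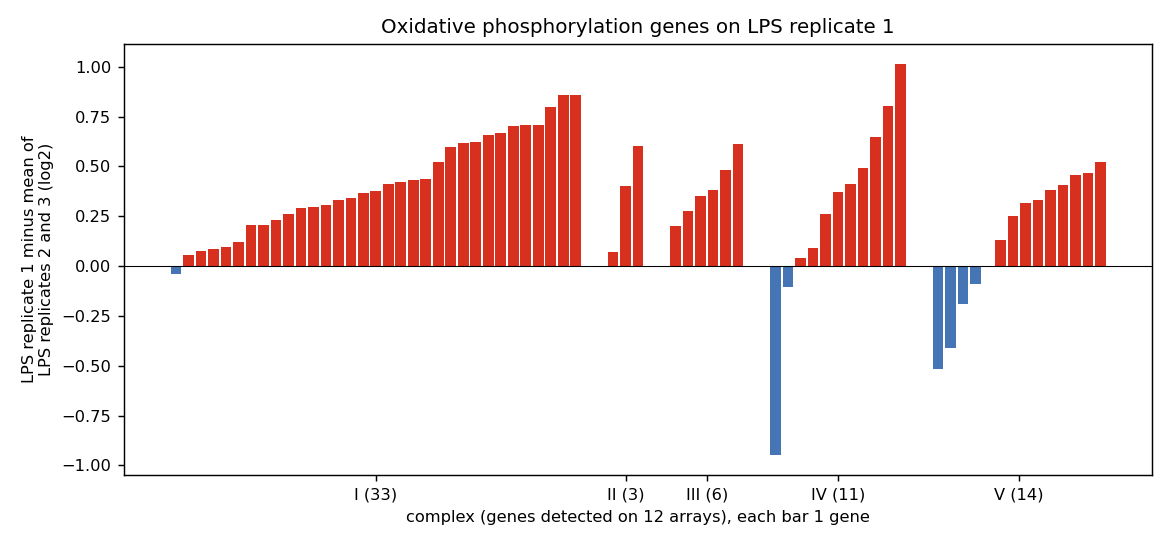
Log2 signal on LPS replicate 1 minus the mean of LPS replicates 2 and 3 (y axis) for the 67 genes detected on all 12 arrays, each bar 1 gene, sorted within complexes (x axis, with the number of genes). Bars above 0 are red and those below it blue. The bars reach 1.02 for Cox7a1 and -0.95 for Cox7a2l, and 59 of 67 are above 0.

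The place of each array was next compared under both scalings, as the median deviation of the 67 genes from their means over the 12 arrays. After quantile normalization it was 0.10, -0.031 and -0.034 on LPS plus hBD3 arrays, 0.25, -0.086 and -0.15 on LPS arrays, 0.11, -0.016 and 0.010 on hBD3 arrays, and -0.014, 0.0048 and -0.16 on untreated arrays. Replicate 1 was highest in the 3 groups that received LPS or hBD3. Replicate 3 of the untreated group lay as low as LPS replicate 3.

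With median scaling, which sets only the median signal of each array equal, the arrays spread further. The median deviation was 0.15, -0.60 and -0.10 on LPS plus hBD3 arrays, 0.60, -0.22 and -0.012 on LPS arrays, 0.21, -0.25 and 0.30 on hBD3 arrays, and 0.25, -0.20 and -0.11 on untreated arrays. LPS plus hBD3 replicate 2 was lowest, and all probes detected throughout were low on it too, with a median of -0.54. The median log FC of the 85 genes for LPS plus hBD3 over LPS was -0.26 under this scaling. For the 67 detected genes it was -0.30, and for all 7893 detected probes -0.28, so relative to the other detected probes these genes were shifted little. No gene passed the test under median scaling, with or without LPS replicate 1.

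**Figure D5:**
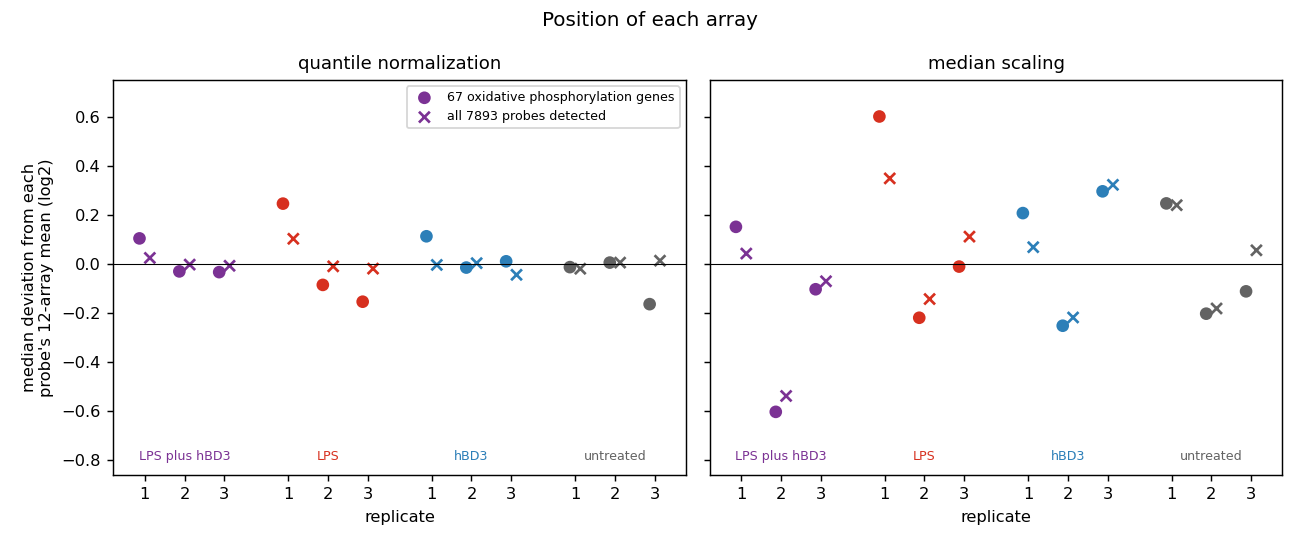
Median deviation (log2, y axis) from each probe's mean over the 12 arrays, for the 67 detected oxidative phosphorylation genes (circles) and for all 7893 detected probes (crosses), by array (x axis, replicates 1 to 3 of each group), after quantile normalization (left) and median scaling (right). LPS replicate 1 stands highest in both panels, at 0.25 and 0.60, and LPS plus hBD3 replicate 2 stands at -0.60 only under median scaling, where the crosses stand at -0.54.

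The 5 assembly factors of complex I found by the rule were examined apart from the subunits. Ndufaf1, which acts in the assembly of the membrane arm, had 7.72, 7.59 and 7.45 on LPS arrays and 7.70, 7.63 and 7.50 on untreated arrays (-0.024 ± 0.083). Ndufaf4 (0.097 ± 0.13) and Ndufaf5 (0.17 ± 0.16) were detected on all arrays, whereas Ndufaf7 (0.089 ± 0.18) was detected on 11 and Ndufaf3 (0.12 ± 0.13) on 9. All of these values are log FC of LPS over untreated with SE. Without LPS replicate 1 they were -0.090 for Ndufaf1, 0.0082 for Ndufaf4, -0.033 for Ndufaf5, -0.10 for Ndufaf7 and -0.053 for Ndufaf3. On LPS replicate 1 these genes lay 0.20 to 0.60 above the mean of the other LPS arrays. Without the 6 proteins that are not subunits and the pseudogene, the median log FC of the remaining 78 genes was 0.031 for LPS over untreated, or -0.072 without that array.

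Related mitochondrial and metabolic lists gave counts of the same kind. None of the 37 measured assembly factors and electron carriers, 15 regulators of mitochondrial biogenesis, 18 citric acid cycle genes, 19 glycolysis genes and 8 mitochondrial or metabolic genes linked to LPS passed the test in either direction in LPS against untreated or in LPS plus hBD3 against LPS, where 0.105% and 0.0545% of all probes did. Measured here means that the array had a probe. In the order given, 28, 9, 14, 13 and 4 of the genes were detected on all 12 arrays, and 6, 4, 3, 2 and 2 on none. Among the last list, Sod2, the manganese superoxide dismutase of mitochondria, had the largest estimate. Its log2 signals were 11.63, 11.52 and 11.49 on LPS arrays, all above 11.13, 10.96 and 11.20 on untreated arrays (log FC 0.45 ± 0.13, limma adjusted p = 1, and 0.258 with the replicate number as a block). AA467197, a mitochondrial paralogue of Ndufa4, had a log FC of 0.25 ± 0.087, or 0.16 without LPS replicate 1.

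Among the regulators, Nrf1, the factor whose motif core was counted above, had 8.16, 8.18 and 7.98 on LPS arrays and 7.74, 8.002 and 7.92 on untreated arrays (0.22 ± 0.11, limma adjusted p = 1). The groups overlapped. Ppargc1a, a coactivator of mitochondrial biogenesis, was detected on no array, and its relative Ppargc1b on all 12. Twnk, the mitochondrial helicase, had an estimate of -0.41 ± 0.24, with 5.49 on LPS replicate 1, against 6.04 and 6.69 on the other LPS arrays and 6.36, 6.48 and 6.63 on untreated arrays. Without LPS replicate 1 its estimate was -0.13.

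LPS replicate 1 was higher than the mean of the other LPS arrays for 60.4% of all 7893 detected probes (median difference 0.11). In these lists this held for 13 of 14 citric acid cycle genes detected on all arrays (median difference 0.28), 19 of 28 assembly factors and electron carriers (0.23), 8 of 13 glycolysis genes (0.11), 5 of 9 regulators (0.077) and 4 of 4 genes linked to LPS (0.30). The glycolysis genes and the regulators lay near the share of all detected probes, and the other lists above it. Like Twnk among the regulators, the genes with the largest estimates for LPS over untreated in 3 more of the lists were low on LPS replicate 1. Pdhb, a subunit of pyruvate dehydrogenase and the exception among the citric acid cycle genes, had 6.55, against 7.68 and 8.11 on the other LPS arrays and 7.84, 7.69 and 8.10 on untreated arrays (-0.43 ± 0.39, and 0.018 without LPS replicate 1). Pfkp, the platelet-type phosphofructokinase of glycolysis, had 5.61, against 7.69 and 8.17 on the other LPS arrays and 7.97, 7.52 and 7.99 on untreated arrays (-0.67 ± 0.54, and 0.097 without that array). Lrpprc, which stabilises mitochondrial mRNA, had 6.55 on that array, against 7.43 and 7.82 on the other LPS arrays. Dld (0.29 ± 0.11, detected on 3 arrays), Etfdh (-0.26 ± 0.18, on all 12) and Hk1 (-0.24 ± 0.16, on 6) had smaller estimates. Without LPS replicate 1 these were 0.16, -0.037 and -0.025. For all of these genes the limma adjusted p was 1.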

How the data were processed

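RNA of BMDM was hybridised to 12 arrays. The authors deposited signal intensities that BeadStudio summarised per probe, not normalized between arrays, and detection p-values for each probe and array. They also deposited a table of quantile normalized intensities, used here as an alternative. Whether BeadStudio subtracted background, and its version, are not given in the sources used here. Columns were assigned to samples by title, and 0 per-sample columns were left unused.

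The signals were quantile normalized over the 12 arrays and log2 transformed, with no filter. Group means were fitted with limma 3.58.1 in R 4.3.3 on all 12 arrays, and p-values were adjusted by the Benjamini-Hochberg method over 25697 probes (threshold 0.05). A log FC is a difference of log2 means, its error is limma's SE, and the number of arrays limits the precision. The script was tested on simulated data.

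The probe table gave 1 symbol for 23978 probes and none for 1719. All 85 genes matched the RefSeq table by Entrez ID. Promoters came from RefSeq windows (GRCm38.p6), with 15 genes unmatched. The members, the lists and the rule for named genes were chosen with earlier results of these data known. The rule took, per complex, the 2 detected genes with the largest log FC in each of the first 2 comparisons, Sdhb, Sdhc and Sdhd, the isoform pairs, the rule's members that are not subunits, the 5 highest and 5 lowest on LPS replicate 1, the 3 with the highest SD, 2 genes per related list, and Tnf as a check of the labels. Ndufa8, Atp5h, Atp5e, Atp5j, Ndufs4, Ndufa10, Ndufv2, Atp5g2, Uqcrb, Ppargc1a, Ppargc1b and the constitutive genes detected on no array were named after their values were seen.

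Of the other marker lists, 2 of 11 neutrophil and 2 of 10 stromal or erythroid genes were detected. Deviations from group means correlated between samples with the same replicate number (r 0.15 to 0.77 in 18 of 18 pairs). The main fit did not use this pairing, so its SE and p-values include the spread between replicate numbers. The pairing entered only as the replicate block. With it, 1 to 8 of the 85 genes had an unadjusted limma p under 0.05 per comparison (844 to 1520 of 25697 probes), and 0 passed the test. The labels do not say what samples with the same number share.

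Alternatives were background correction with neqc, median scaling, the deposited table, a filter (detected on at least 3 arrays), the replicate block, a fit of only the groups compared, weights for arrays, a robust variance with a trend, other choices of members, and leaving out each array.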

Additional observations from a re-analysis of the deposited data

How the results depend on the processing

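The count of genes past the threshold was 0 in all 6 comparisons under all 24 alternatives, among them the fit with the replicate number as a block, which changed no call. Since every replicate number is present in every group, the block cannot move a log FC. The median of 0.032 for LPS over untreated was therefore bound to stay. Over all alternatives the smallest adjusted p of any of the 85 genes was 0.326, for Uqcrc2 with the replicate block. Of 144 median log FC values recomputed for the 85 genes, 7 moved by more than the spread between replicates (SD 0.11). The block, the robust variance and the fit of only the groups compared keep the same differences, so their medians could not move. Smaller moves without LPS replicate 1 were not counted. Among them were 0.032 to -0.067 for LPS over untreated and 0.020 to 0.12 for LPS plus hBD3 over LPS. With median scaling the medians were -0.26 for LPS plus hBD3 over LPS, -0.17 for LPS plus hBD3 over untreated, -0.22 for LPS plus hBD3 over hBD3 and -0.31 for the difference between the LPS effects. With median scaling and without LPS replicate 1 they were -0.092 for LPS over untreated, and again -0.17 for LPS plus hBD3 over untreated and -0.22 for LPS plus hBD3 over hBD3. The cause was not tested, and the medians of all detected probes were -0.28, -0.22, -0.25 and -0.30 in the first 4 of these.

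Leaving out each array in turn gave medians of -0.067 (without LPS replicate 1) to 0.10 (without LPS replicate 3) for LPS over untreated, -0.051 (without LPS replicate 3) to 0.12 (without LPS replicate 1) for LPS plus hBD3 over LPS, 0.011 to 0.079 for LPS plus hBD3 over untreated, 0.018 to 0.077 for hBD3 over untreated, -0.029 to 0.034 for LPS plus hBD3 over hBD3, and -0.081 (without LPS replicate 3) to 0.062 (without LPS replicate 1) for the difference between the LPS effects. By complex, 20 of 140 medians moved, 12 of them in settings without LPS replicate 1. Counts over all probes ranged between 6 and 72 for LPS against untreated (27 as reported) and between 0 and 42 for LPS plus hBD3 against LPS (14), lowest with only the groups compared and highest with the replicate block in both. Without LPS replicate 1 they were 44 and 29, and with weights for arrays the first was 44. Without each of LPS plus hBD3 replicate 3, LPS replicate 2 and LPS replicate 3, and with neqc, the second was 9. The replicate block gave 20 probes for the difference between the LPS effects and 2 for LPS plus hBD3 against untreated (0 as reported for both), with 0 of the 85 genes among them. For that difference the count was 17 without LPS replicate 1, 12 with weights for arrays and at most 8 under the other alternatives. With 3 arrays a group, changes within the intervals given above remain compatible with the data, and the 11 genes detected on no array were not measured.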
